A study of Homo sapiens with 18 samples.

Results

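TGFβ was compared with no ligand after 24 h in A549 cells that had received a control siRNA. A549 is an established human lung adenocarcinoma line, profiled here on Affymetrix whole-transcript arrays. The comparison used the 3 arrays labelled siControl with TGFβ at 24 h and the 3 arrays labelled siControl without TGFβ, that is 6 of the 18 arrays in the series, and covered all 18377 genes whose probe sets carried a single gene symbol. Cells were grown in 10% serum, starved of it, given 250 pM TGFβ for 1 h, washed, and kept in 0.2% serum for the 23 h that followed. The untreated cells carried the same control siRNA and no ligand, and their labels give no time of collection, so TGFβ and time in culture and low serum cannot be told apart in the 24 h values. The other 12 arrays were siControl cells collected at 8 h (1 h of ligand and 7 h without) and a second arm, siPKCiz, transfected with siRNA against PKCiota and PKCzeta and left untreated or collected at 8 h or 24 h. Every group had 3 biological replicates. All cells came from 1 tumour line, and all had been transfected, so no group shows A549 cells without an siRNA.

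TGFβ binds a type II receptor kinase that recruits and activates a type I receptor, which phosphorylates SMAD2 and SMAD3. With SMAD4 these enter the nucleus and act on target genes together with other factors, AP-1 among them. In carcinoma cells the pathway is best known for the epithelial to mesenchymal transition, in which E-cadherin and apical junctions are lost and matrix, integrins and a contractile cytoskeleton are gained, and in the lung it is also known for its part in fibrosis. A549 cells keep epithelial junctions in culture, secrete plasma proteins otherwise made in the liver, and carry an inactivating KEAP1 mutation, which leaves the transcription factor NRF2 and its detoxifying target genes constantly active.

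At 24 h, 1075 genes were higher and 1187 were lower than in untreated cells (limma, Benjamini-Hochberg adjusted p under 0.05), which is 12.3% of the genes tested, 5.85% rising and 6.46% falling. Most of these differences were small. The median rise among called genes was 0.51 and the median fall was -0.47 on the log2 scale, while the median over all genes was -0.0099. At least 2-fold changes were called for 155 genes that rose (0.843%) and 122 that fell (0.664%), at least 4-fold for 18 and 8, and at least 8-fold for 5 and 0. The 3 and 3 arrays did not overlap in 2205 of the 2262 called genes (97.5%) and in 25.5% of all genes. These p-values measure the spread between the labelled biological replicates, and 3 arrays per group limit the precision, the median standard error of a change being 0.0996 log2 units. The arrays measure bulk RNA, so fewer cells of a kind and less RNA per cell cannot be told apart.

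Replicate 1 stood apart from replicates 2 and 3 in the groups used here. Across genes, replicates 2 and 3 correlated at 0.996 to 0.997 in the siControl groups and either of them with replicate 1 at 0.992 to 0.994. For the 155 genes at least 2-fold higher, the median change over the mean of the untreated arrays was 1.06 in 24 h array 1, 1.52 in array 2 and 1.44 in array 3, and for the 122 genes at least 2-fold lower it was -1.08, -1.36 and -1.46. Leaving out replicate 1 from every group gave 2872 calls, and leaving out replicate 2 or 3 gave 761 and 755, from 12 arrays in place of 18. What set replicate 1 apart was not tested. In the text below, a gene named as changed kept its call when any 1 of the 6 arrays was left out, unless its value without an array is given. Every count of called list members is to be read beside the shares over all genes, 5.85% higher and 6.46% lower.

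**Figure D1:**
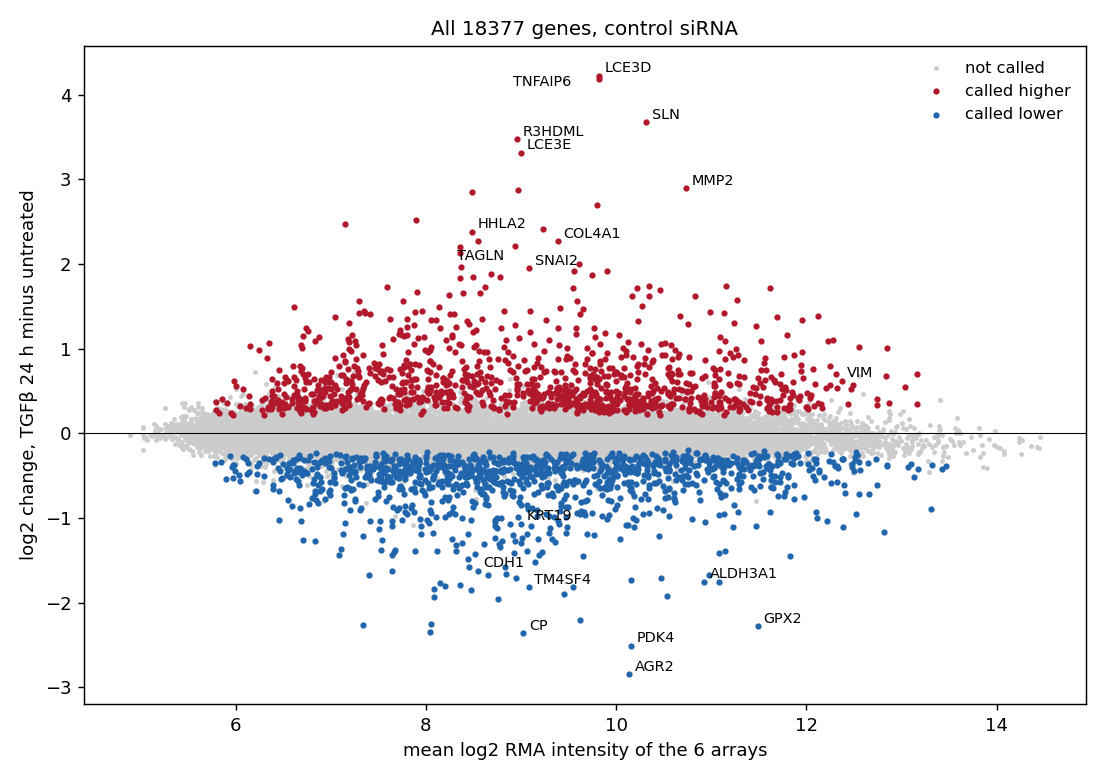
Log2 change at 24 h (TGFβ minus untreated, siControl, vertical axis) against mean log2 intensity over the 6 arrays (horizontal axis), 1 point per gene for 18377 genes, with called genes coloured by direction. The 1075 genes that rose reach 4.22 for LCE3D, and the 1187 that fell reach -2.85 for AGR2.

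The gene that rose most was LCE3D, which encodes a late cornified envelope protein of the outer epidermis. Its intensity was 158, 252 and 231 in the 3 untreated arrays, 1359, 1364 and 1576 at 8 h and 2875, 4833 and 4284 at 24 h. All 24 h arrays lay far above all untreated arrays, and array 1 was the lowest of the 24 h arrays. The change was 4.22 ± 0.27 log2 units (SE, n = 3 and 3; 18.6-fold; limma adjusted p = 2.36e-08). LCE3E, its neighbour on chromosome 1 and a close relative, read 166, 161 and 161 untreated, 377, 503 and 498 at 8 h and 907, 2332 and 2005 at 24 h (3.31 ± 0.31, adjusted p = 1.34e-06). Since the coding sequences of the family are alike, signal could be shared between the LCE3D and LCE3E probe sets, and how much each transcript contributes is uncertain. LCE3A read 166, 148 and 133 untreated and 159, 175 and 178 at 24 h, with overlapping arrays (log2 0.20, adjusted p = 0.256), and LCE3C had a log2 value of 0.22 (adjusted p = 0.179). CRCT1, on the other side of LCE3E, rose by 0.66 ± 0.17, a call lost without 24 h replicate 2 (0.53) or 24 h replicate 3 (0.51). Of 23 cornified envelope genes measured, 3 rose and 1 fell, and the median of the list was 0.023 against -0.0099 over all genes. The 1 that fell was SPRR3 (-0.30), a call lost without 24 h replicate 1 (-0.25), 24 h replicate 2 (-0.31), untreated replicate 1 (-0.21) or untreated replicate 3 (-0.34). The list had 4, 2 and 2 higher without replicate 1, 2 and 3 in turn, and 0 lower each time.

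The promoters of LCE3D and LCE3E are shown because the pair rose together and by far more than LCE3A, LCE3C or CRCT1. Each sequence is the RefSeq window from 250 bases before to 50 bases after the transcription start in GRCh38.p14, 5′ to 3′ on the gene's own strand. Capitals mark matches to 4 motifs searched on both strands: the SMAD box CAGAC, the AP-1 site TGANTCA, the E-box CAGGTG, which is bound by SNAI and ZEB factors, and the antioxidant response element core TGACNNNGC. No 2 matches overlapped in the windows printed here. LCE3D lies at chr1:152580467-152580766, minus strand, and LCE3E at chr1:152566731-152567030, minus strand.
LCE3D: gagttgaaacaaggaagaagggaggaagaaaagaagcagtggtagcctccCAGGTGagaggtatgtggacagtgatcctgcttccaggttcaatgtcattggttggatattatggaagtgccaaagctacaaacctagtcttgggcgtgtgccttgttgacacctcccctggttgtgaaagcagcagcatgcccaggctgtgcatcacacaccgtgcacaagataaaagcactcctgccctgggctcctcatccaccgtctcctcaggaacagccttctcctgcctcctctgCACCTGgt
LCE3E: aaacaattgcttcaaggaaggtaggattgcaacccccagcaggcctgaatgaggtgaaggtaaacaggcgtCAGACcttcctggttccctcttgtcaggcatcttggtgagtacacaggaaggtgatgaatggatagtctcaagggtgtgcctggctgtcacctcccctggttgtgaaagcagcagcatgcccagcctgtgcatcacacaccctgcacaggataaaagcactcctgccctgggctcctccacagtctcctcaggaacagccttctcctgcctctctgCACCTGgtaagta
Laid side by side without gaps the 2 windows had the same base at 81 of 300 positions (27%), and their longest shared run, at differing offsets, was 36 bases. A comparison without gaps misses stretches shared at differing offsets, so the 27% does not measure how alike the windows are. Both hold an E-box just after the start, from position 43 in LCE3D and from position 38 in LCE3E, in each case as CACCTG on the strand shown. LCE3D has a further CAGGTG at -200 and LCE3E a SMAD box at -179, and neither window has an AP-1 site or an antioxidant element.

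TNFAIP6 (TSG-6) encodes a secreted protein that binds hyaluronan and moves heavy chains of inter-alpha-inhibitor onto it. Its intensity was 140.3, 247 and 276 untreated, 1898, 2810.5 and 2918 at 8 h and 1985, 5735 and 5073 at 24 h. In array 1 the 24 h value was near the 8 h values, while arrays 2 and 3 were well above them, and every treated array exceeded every untreated one. The change at 24 h was 4.19 ± 0.45 (18.2-fold, limma adjusted p = 4.89e-06). R3HDML, a member of the CAP family of secreted proteins, read 94.7, 214 and 164 untreated, 637, 789 and 702 at 8 h and 1074, 2000.2 and 2116 at 24 h, again with no overlap (3.47 ± 0.33, adjusted p = 1.50e-06). Their promoters are printed as the leading risen genes with the motifs of the pathway's own factors, TNFAIP6 from chr2:151357342-151357641, plus strand and R3HDML from chr20:44336793-44337092, plus strand.
TNFAIP6: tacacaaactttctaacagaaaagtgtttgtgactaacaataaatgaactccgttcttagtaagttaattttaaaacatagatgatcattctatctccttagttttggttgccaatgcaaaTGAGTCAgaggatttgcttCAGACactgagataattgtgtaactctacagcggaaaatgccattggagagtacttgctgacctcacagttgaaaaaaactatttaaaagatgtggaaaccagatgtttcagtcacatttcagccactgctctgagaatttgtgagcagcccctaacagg
R3HDML: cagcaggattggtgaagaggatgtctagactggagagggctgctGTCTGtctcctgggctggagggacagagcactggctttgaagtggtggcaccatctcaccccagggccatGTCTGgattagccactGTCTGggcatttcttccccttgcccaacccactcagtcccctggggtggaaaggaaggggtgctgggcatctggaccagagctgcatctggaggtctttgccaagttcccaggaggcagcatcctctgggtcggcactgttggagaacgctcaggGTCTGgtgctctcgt
In TNFAIP6 an AP-1 site at -129 stands beside a SMAD box at -110. R3HDML has 4 SMAD boxes, all read on the opposite strand (GTCTG as printed), at -206, -136, -120 and 36, and no match to the other motifs.

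Matches of this length are common. Of 20069 promoter windows of 14210 tested genes, 44.8% held CAGAC, 6.11% TGANTCA, 19.8% CAGGTG and 14.1% TGACNNNGC. In the 181 windows of 110 genes that rose at least 2-fold the shares were 49.7%, 11.6%, 24.3% and 9.94%, and in the 136 windows of 88 genes that fell at least 2-fold they were 46.3%, 12.5%, 19.9% and 12.5%. The AP-1 letters thus stood in a higher share of windows of both risen and fallen genes than of all genes. The shares were not tested, several windows can belong to 1 gene, and a match is a description of the letters only.

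**Figure D2:**
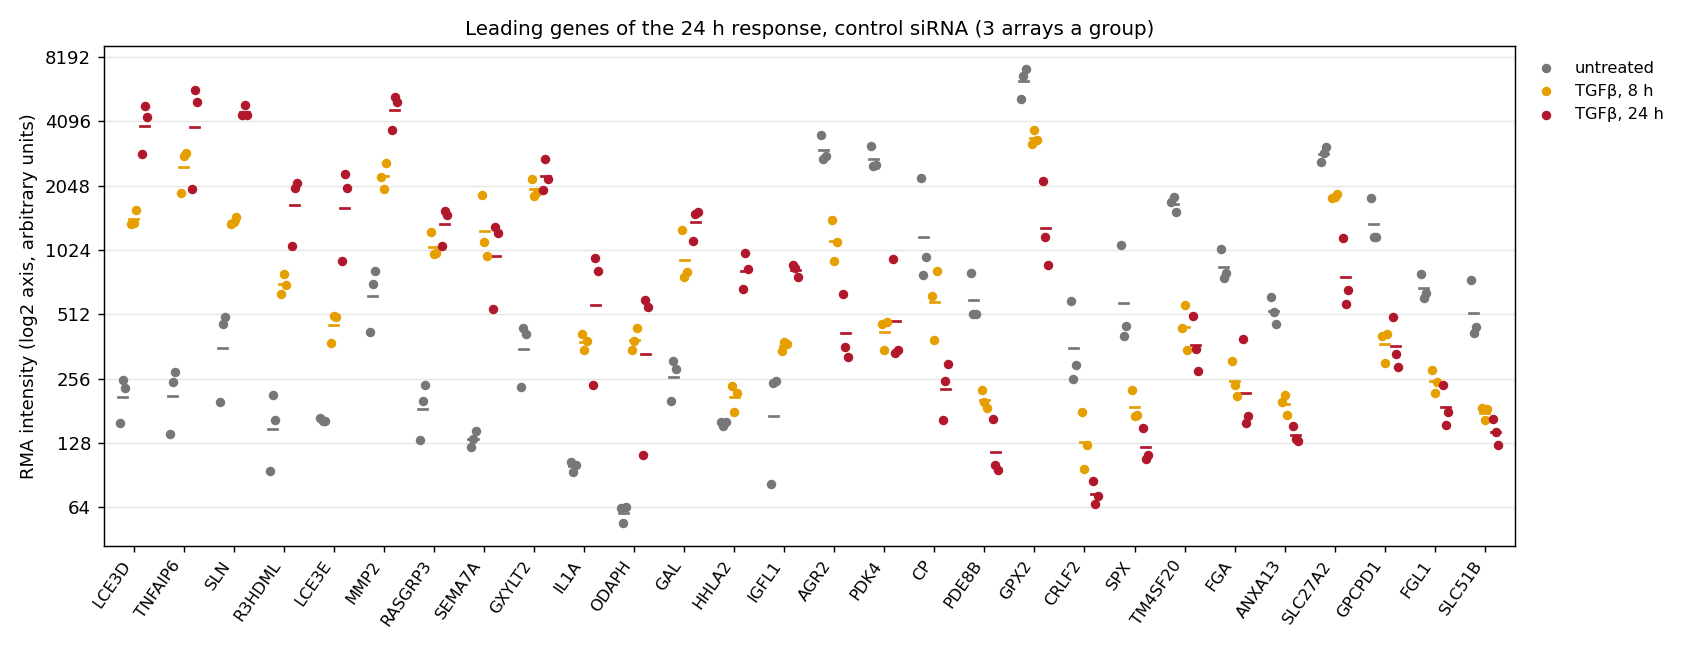
RMA intensity (log2 axis) of the 14 genes that rose most and the 14 that fell most at 24 h, in each siControl array, with 1 point per array and a line at the mean of the log2 values. In all 28 genes the 3 red 24 h points are clear of the 3 grey untreated points, from LCE3D (2875 to 4833 at 24 h) to SLC51B (125 to 165 at 24 h).

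Among the other genes that rose most, SLN encodes sarcolipin, a small membrane protein that inhibits the calcium pumps of the sarcoplasmic and endoplasmic reticulum. It read 199.5, 459 and 498 untreated, 1358, 1379 and 1456 at 8 h and 4394, 4877 and 4411 at 24 h, an increase of 3.67 ± 0.27 (limma adjusted p = 1.49e-07). The 24 h arrays were within a narrow range, and untreated array 1 was the lowest of its group. ATP2A2, 1 of these calcium pumps, read 8440.4, 7440.1 and 6233 untreated and 6738, 6571 and 6596 at 24 h, and its arrays overlapped (log2 -0.14, adjusted p = 0.491). Of 22 calcium pumps and regulators measured 4 rose and 1 fell (median 0.037), and apart from SLN no change in the list reached 0.5 log2 units. With replicate 2 left out 1 were called higher and 0 lower, and with replicate 3 left out 3 and 0.

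RASGRP3, an exchange factor that activates Ras and Rap, rose by 2.87 ± 0.38, from 132, 200.1 and 239 to 1067, 1552 and 1498. SEMA7A, a membrane-anchored semaphorin that signals through integrins, rose by 2.85 ± 0.27, from 122, 134 and 145 to 542, 1316 and 1236, with 24 h array 1 at less than the other 24 h arrays and still above every untreated array. IL1A, the membrane-bound and alarmin form of interleukin-1, went from 105, 93.8 and 101 to 239.6, 939 and 815 (2.51 ± 0.35). The 24 h arrays of IL1A were split, array 1 being far below arrays 2 and 3. ODAPH, a phosphoprotein of enamel formation, showed the same split, from 63.6, 54.0 and 63.8 untreated to 112, 597 and 555 (2.47 ± 0.46, adjusted p = 0.00111). GAL, the neuropeptide galanin, rose from 200.4, 311 and 283 to 1130.1, 1516 and 1542 (2.41). HHLA2, a B7-family ligand of T cells, was flat among untreated arrays (160.4, 153 and 159.8), little higher at 8 h (236, 178 and 220.1) and at 670.0, 987 and 833 at 24 h (2.38 ± 0.12, adjusted p = 2.22e-09, the lowest of any gene). IGFL1, of the insulin growth factor-like family, read 82.4, 243 and 249 untreated and 869, 844 and 768 at 24 h (2.27 ± 0.50), and untreated array 1 was far below the other untreated arrays. GXYLT2, which adds xylose to glucose on Notch repeats, rose by 2.70. VSTM4 rose by 1.96, CHRNA9, the alpha-9 nicotinic receptor subunit, by 1.84, and TMEM88, an inhibitor of Wnt signalling that binds Dishevelled, by 1.83. The 30 risen genes were cut at SRPX (1.74), and the next was MMP10 at 1.73.

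The gene that fell most was AGR2, a protein disulphide isomerase of the endoplasmic reticulum that helps fold mucins. Its intensity was 3557, 2741 and 2832 untreated, 1417, 906 and 1119.8 at 8 h and 635, 361 and 322 at 24 h. Every 24 h array was below every 8 h array and every 8 h array below every untreated one. It fell by 2.85 ± 0.26 (7.2-fold, limma adjusted p = 1.11e-06). PDK4, a kinase that switches off pyruvate dehydrogenase, was at 3139.7, 2539 and 2556 untreated, 459.6, 350.0 and 469 at 8 h and 929.6, 337 and 349.7 at 24 h (-2.51 ± 0.32). PDE8B, which degrades cyclic AMP, went from 799, 513 and 512 to 165, 101 and 95.1 (-2.35 ± 0.24). CRLF2, the receptor chain for thymic stromal lymphopoietin, went from 593, 254 and 295 to 84.3, 66.1 and 72.1 (-2.26 ± 0.31), and SPX, the peptide hormone spexin, from 1083, 404 and 449 to 149, 108 and 113 (-2.25 ± 0.38). In both genes untreated array 1 was well above the other untreated arrays, and no 24 h array reached the lowest of them.

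Several of the lowest genes handle lipids and lipid mediators, though most listed lipid genes were not called. In the list of fatty acid metabolism and PPAR target genes 2 rose and 4 fell of 22, with a median of -0.11. Without replicate 2 that list had 0 higher and 3 lower, and without replicate 3 it had 0 and 3. SLC27A2, a fatty acid transporter and very long chain acyl-CoA synthetase, read 2648, 2912 and 3102 untreated, 1802, 1810.0 and 1866 at 8 h and 1166, 569.6 and 668 at 24 h (-1.92 ± 0.19). GPCPD1, which splits glycerophosphocholine, fell by 1.90, and SLC51B, a subunit of the bile acid and steroid exporter, by 1.85. PLA2G4A, the cytosolic phospholipase that releases arachidonic acid, went from 3624, 2129 and 2195 to 1169, 574 and 715 (-1.71 ± 0.28), and TBXAS1, thromboxane synthase, from 864, 789.7 and 1045 to 279, 269.7 and 269 (-1.71 ± 0.14). The 3 TBXAS1 arrays at 24 h lay close together and below every untreated array. BDKRB1 and BDKRB2, the adjacent bradykinin receptor genes on chromosome 14, fell by 1.81 and 1.43, the first from 1609, 1088 and 1569.8 to 372, 401 and 423 and the second from 595, 521 and 694 to 289, 188 and 203. AQP3, a water and glycerol channel, fell by 1.80, RAB27B, a GTPase of secretory vesicles, by 1.68, TRPA1, a channel opened by irritants, by 1.66, and FGL1, a liver-derived ligand of the T cell receptor LAG-3, by 1.85. STK32B fell by 1.80, BCAS1 by 1.67 and CABLES1 by 1.62. The 30 fallen genes were cut at CABLES1, and the next value was -1.58.

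Each of the 60 genes so ranked kept its call in the 6 fits without 1 array and in the 8 other settings tried for single genes, and 56 kept it whichever replicate number was left out of every group. Without replicate 2, ODAPH (1.97), IGFL1 (2.51), ITGB6 (2.07) and TMEM88 (1.62) were no longer called, and without replicate 3 neither were ODAPH (2.14) and ITGB6 (2.06). All 60 had the same sign at 8 h, a comparison that shares the untreated arrays. In dim genes the intensity floor of the array limits what a change can show: of the 155 genes at least 2-fold higher, 45 had an untreated mean under the array median (156.1 to 160.7 in the 18 arrays), and of the 122 at least 2-fold lower, 30 had a 24 h mean under it.

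The pathway's own ligands and their binding proteins mostly rose. Of 18 such genes measured, 11 rose and 1 fell, with a median change of 0.68. TGFB1 went from 1557, 1604 and 1876 to 2482, 3153 and 2927 (0.76 ± 0.12) and TGFB2 from 3601, 3787 and 3494 to 5137, 4863 and 4908 (0.45 ± 0.077), with no overlap in either. INHBA, the activin A subunit, rose from 95.6, 95.7 and 83.0 to 170.0, 367 and 316 (1.57 ± 0.23), and INHBB, the activin B subunit, fell by 0.67. The activin antagonists FST, FSTL3 and the related FSTL1 rose by 1.08, 0.82 and 0.95. The latent TGFβ binding proteins LTBP2, LTBP3 and LTBP4 rose by 1.17, 0.75 and 0.66, and THBS1, which can release the active ligand, by 1.02.

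The receptors moved in both directions. TGFBR1, the type I receptor, rose from 2388, 2917 and 2986 to 5621, 7933 and 8265 (1.38 ± 0.15, limma adjusted p = 7.39e-06). TGFBR2, the type II receptor, fell from 3976, 4643 and 4735 to 2830.0, 2944 and 2484 (-0.69 ± 0.11, adjusted p = 3.73e-04), and TGFBR3, the co-receptor betaglycan, from 725, 633 and 597 to 413, 263 and 193 (-1.24 ± 0.23). None of the 3 had overlapping arrays. Of the BMP receptors, BMPR2 rose by 1.10 ± 0.19 and ACVR1 by 0.36 ± 0.074. In all 3 rose and 2 fell of 12 receptors and co-receptors, with a median of -0.040. Leaving out replicate 2 gave 2 higher and 1 lower in this list, and leaving out replicate 3 gave 2 and 1.

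Among 19 SMADs and negative regulators 6 rose and 2 fell (median 0.082). The risen genes that held in every fit without an array were inhibitors: PMEPA1 (0.96), SKIL (0.89), LDLRAD4 (0.85), SMURF2 (0.74) and SMAD7 (0.65). SMAD7 read 198, 264 and 235 untreated, 529, 469.6 and 381 at 8 h and 286, 436 and 383 at 24 h, so the 24 h arrays lay above the untreated arrays and overlapped those of 8 h. SMAD3, the signal transducer, fell from 3284, 4029 and 3996 to 2746, 2475 and 2753 (-0.50 ± 0.10). The list had 4 higher and 0 lower without replicate 2, and 4 and 0 without replicate 3. Without replicate 1 the list had 6 up and 4 down. Of 36 genes listed as early TGFβ targets, 22 rose and 1 fell, with a median of 0.70. They included SPHK1 (1.32), CCN1 (1.13), IL11 (1.06), JUNB (0.89), CCN2 (0.88) and COL7A1 (0.46). The only one that fell was ID2 (-0.78 ± 0.18), an inhibitor of basic helix-loop-helix factors and a BMP target, whose call was lost without 24 h replicate 3 (-0.63). Without replicate 2 the list had 12 called higher and 0 lower, and without replicate 3 it had 11 and 0. On the BMP side, BMP4 fell from 567, 574 and 721 to 326, 225 and 212 (-1.31 ± 0.16), GDF15, a stress-induced member of the superfamily, fell by 1.74, and the BMP antagonists GREM1 and NOG rose by 1.09 and 0.89. In that list 4 rose and 3 fell of 21. With replicate 2 left out 4 were called higher and 2 lower, and with replicate 3 left out 2 and 2.

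Of the 13 factors known to drive that transition, 4 rose and 1 fell (median 0.13). SNAI2 read 270.5, 295 and 266 untreated and 756, 1394 and 1156 at 24 h (1.95 ± 0.18), SNAI1 157, 171 and 196 and 310.4, 566 and 481 (1.34 ± 0.18), both of them repressors that bind E-boxes of the E-cadherin promoter. TCF4 rose by 1.00 and ZEB1 by 0.44. TWIST1 fell by 0.43 ± 0.089, and ZEB2 read 442, 399.7 and 459 untreated and 414, 394 and 412 at 24 h with overlapping arrays (-0.091, adjusted p = 0.555). Without replicate 2 this list had 3 and 0 higher and lower and without replicate 3 it had 4 and 0, the call of TWIST1 being lost in both (-0.45 and -0.34). The transcription factors of epithelial and lineage identity went the other way: 1 rose and 8 fell of 28. GRHL3, a factor of barrier epithelia, went from 319, 308 and 269 to 125, 116 and 105 (-1.37 ± 0.10), ELF3 fell by 1.12, NR5A2 by 0.95, FOXA2 by 0.65, CEBPB by 0.47 and KLF5 by 0.46. Leaving out replicate 2 gave 0 higher and 4 lower in this list, and leaving out replicate 3 gave 0 and 3. SOX2, a stem cell and airway factor, gave a wide split between arrays. It read 1004, 904 and 997 untreated and 242, 209.7 and 219 at 8 h, then 883, 230.4 and 240.4 at 24 h, so that 24 h array 1 was near the untreated level and arrays 2 and 3 near that of 8 h. Its fall of 1.40 ± 0.39 (adjusted p = 0.0226) lost its call without untreated replicate 1, 2 or 3 (-1.38, -1.45 and -1.38) and without 24 h replicate 2 or 3 (-1.07 and -1.10).

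CDH1, which encodes E-cadherin, read 765, 607 and 605 untreated, 364, 312 and 337 at 8 h and 228, 228 and 185 at 24 h (-1.62 ± 0.17, limma adjusted p = 4.33e-06). The groups were ordered with no overlap at either step. CDH17, the liver and intestine cadherin, fell by 1.42, while CDH2, N-cadherin, rose from 3225, 3308 and 3063 to 4881, 4889.6 and 5260.2 (0.65 ± 0.072) and CDH11 by 0.79. These were the calls among 16 cadherins and adherens junction genes. The list had 5 and 2 higher and lower without replicate 1, and 1 and 2 without replicate 2 and 1 and 2 without replicate 3, CDH11 being lost in both (0.78 and 0.75). VIM, vimentin, rose by 0.62 ± 0.11, and FN1, fibronectin, read 5019.8, 3869 and 4025 untreated and 4477, 6225 and 6289 at 24 h with overlapping arrays (0.39, adjusted p = 0.0622).

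Other epithelial genes changed unevenly. In the tight junction list 2 rose and 6 fell of 21. CLDN1 and CLDN2 fell by 0.45 and 0.52, the polarity proteins PARD6A and PARD6B by 0.65 and 0.54, whereas CLDN4, another claudin of the same junction, rose by 1.25 ± 0.20. Of 15 desmosome and hemidesmosome genes 4 rose and 1 fell, with DSC2 up by 0.77 and PLEC by 0.53 and PKP2 at -0.57. Of the 15 keratins measured only KRT19 was called, from 747, 727 and 754 to 376, 355 and 330.1 (-1.07 ± 0.12). The fallen share of the keratin list and of the desmosome list, 6.67% in each, was near the 6.46% of all genes. The main simple-epithelial keratins of the line showed values of -0.16 for KRT8 (adjusted p = 0.286), -0.14 for KRT18 (0.396) and 0.18 for KRT7 (0.165). Among surface and secretory genes the counts were 10 of 30 lower and 1 higher (median -0.26), and without replicate 2 or 3 they were 8 lower and 0 higher in both. TM4SF20 and TM4SF4, related membrane proteins, fell by 2.20 and 1.82, ANXA13, an annexin of apical membranes, by 1.94, SPDEF, a factor of mucous cells, by 1.39, EPCAM by 1.23, LLGL2 by 0.79 and MUC1 by 0.52. CEACAM6, an adhesion molecule of the carcinoembryonic antigen family, fell by 1.39, and read -0.81 without replicate 1 in every group. Called higher and lower without replicate 2 were 1 and 3 for tight junctions and 1 and 1 for desmosomes, and without replicate 3 1 and 4 for tight junctions and 1 and 1 for desmosomes.

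Type IV collagen led the matrix genes. COL4A1 read 250.2, 331 and 346 untreated, 956, 844 and 882 at 8 h and 1164, 1662 and 1654 at 24 h (2.27 ± 0.19, limma adjusted p = 5.29e-07), and COL4A2 524, 742 and 728, 1219.9, 1251 and 1240.2 and 1893, 2392 and 2212 (1.72 ± 0.17, adjusted p = 1.96e-06). The products of both genes join in 1 heterotrimer of the basement membrane. At 24 h the array order was the same in the 2 genes, with array 1 lowest, while at 8 h and untreated the order differed. They lie head to head on chromosome 13, their starts 127 bases apart, and the windows of COL4A1 (chr13:110307108-110307407, minus strand) and COL4A2 (chr13:110307034-110307333, plus strand) share 226 bases. The COL4A2 window is printed because it holds both starts of a pair that rose together.
COL4A2: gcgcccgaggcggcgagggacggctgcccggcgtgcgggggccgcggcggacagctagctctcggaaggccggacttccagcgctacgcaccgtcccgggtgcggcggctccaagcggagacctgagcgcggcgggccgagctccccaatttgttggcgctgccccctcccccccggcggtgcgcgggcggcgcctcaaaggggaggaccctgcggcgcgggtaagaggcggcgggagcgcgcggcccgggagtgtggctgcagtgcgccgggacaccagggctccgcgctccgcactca
None of the 4 motifs was found in either window.

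In the list of collagens 9 rose and 1 fell of 27, and the median of the list was 0.10. COL1A1 went from 322, 408 and 362 to 608, 1027 and 912 (1.19 ± 0.17), while COL1A2, whose product joins it in type I collagen, read 118, 113 and 102 untreated and 109, 112 and 128 at 24 h (0.067, adjusted p = 0.755), and COL3A1 read 0.067 (adjusted p = 0.754). COL5A1 rose by 1.10, COL22A1 by 0.92, COL15A1 by 0.84 and COL5A2 by 0.35, and COL4A6 fell by 0.49. Of 21 enzymes that modify or cross-link collagen 8 rose and 0 fell, led by the prolyl hydroxylase subunit P4HA3 (1.04), the lysyl oxidases LOX (0.80) and LOXL4 (0.58), and BMP1, which removes the collagen propeptides (0.58, with a dimmer BMP1 probe set at 0.19 and not called). Matrix glycoproteins and proteoglycans had 17 risen and 1 fallen of 47. SPOCK1 rose by 1.57, LUM, lumican, from 173, 135 and 145 to 331, 394 and 371 (1.28), VCAN, versican, by 1.27, GPC6 by 0.98, SPARC by 0.94 and NID1, nidogen, by 0.75. EFEMP1, a fibulin, fell by 0.68. SULF2, which trims sulphate from heparan sulphate, went from 469, 523 and 487 to 1225, 2299.8 and 2261 (1.91 ± 0.20). Without replicate 2 the numbers higher and lower were 6 and 0 for collagens, 4 and 0 for their enzymes and 9 and 1 for glycoproteins. Without replicate 3 they were 6 and 0 for collagens, 5 and 0 for their enzymes and 10 and 1 for glycoproteins.

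Several matrix metalloproteinases rose, and so did some of their inhibitors. MMP2, gelatinase A, read 424, 709 and 817 untreated, 2260.3, 1986 and 2617 at 8 h and 3731, 5315 and 5059.9 at 24 h (2.89 ± 0.27, limma adjusted p = 1.11e-06). MMP1, interstitial collagenase, went from 135, 131 and 203 to 537, 784 and 818 (2.19), its neighbour MMP10, stromelysin 2, from 105, 108 and 106 to 330.5, 362 and 364 (1.73), and MMP9 from 71.8, 83.0 and 83.0 to 184, 174 and 165 (1.14). The inhibitors TIMP3 and TIMP2 rose from 187, 250.3 and 269 to 690.0, 961 and 881 (1.85) and from 2948, 3444 and 3483 to 6165, 7938 and 6997 (1.09), and TIMP4 by 0.45, while MMP7, matrilysin, fell by 0.76. In all 7 rose and 2 fell of 23, with 6 and 1 higher and lower without replicate 2 and 7 and 1 without replicate 3. ADAM19 rose from 1095, 1227 and 1427 to 3933, 4317 and 4215 (1.74 ± 0.16). In the plasminogen system PLAU, urokinase, rose by 0.75, its receptor PLAUR by 0.66, PLAT by 0.81 and the inhibitor SERPINE2 by 1.37, while the serpins SERPINB1 and SERPINI1 fell by 0.85 and 0.86. That list had 7 rose and 5 fell of 23. With replicate 2 left out 4 were called higher and 2 lower, and with replicate 3 left out 3 and 2.

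Integrin subunits rose more often than they fell. ITGB6, whose pairing with alpha v releases latent TGFβ, went from 188, 547 and 576 to 908, 1971 and 2117 (2.00 ± 0.42), with untreated array 1 far below the other untreated arrays. ITGB3 went from 193, 218 and 231 to 539.8, 749 and 761 (1.66 ± 0.16), ITGA11, a collagen receptor subunit, from 959, 1425 and 1395 to 3346, 3462 and 3213 (1.43 ± 0.15), ITGA5, of the fibronectin receptor, by 0.74, ITGA2 by 0.67 and ITGAV by 0.54. ITGB5 and ITGA10 fell by 0.39 and 0.58. The list had 7 rose and 2 fell of 20. Leaving out replicate 2 gave 4 higher and 1 lower in this list, and leaving out replicate 3 gave 4 and 0.

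Of 34 actin and contractile genes 15 rose and 3 fell (median 0.24). TAGLN, transgelin, went from 180.3, 262 and 249 to 979, 1158 and 1039.7 (2.22 ± 0.18, limma adjusted p = 4.47e-07), TNS1, tensin, rose by 1.91, PDLIM7 by 0.95, CALD1, caldesmon, by 0.80, MYO10 by 0.76, DAAM1 by 0.75, PALLD by 0.70 and TPM1 by 0.49. ACTA2, smooth muscle actin, read 640.2, 819 and 1122 untreated and 1112, 739 and 712 at 24 h with overlapping arrays (adjusted p = 0.994), and was called lower without replicate 1 (-0.40). MYLK, myosin light chain kinase, fell by 0.71. CORO2B, a coronin, went from 326, 489 and 571 to 1315, 1816 and 1838 (1.86). The list had 7 higher and 1 lower without replicate 2, and 8 and 1 without replicate 3. Beside RASGRP3, DOCK2, a Rac exchange factor best known from leukocytes, went from 139.9, 269.9 and 259.8 to 645, 921 and 827 (1.88 ± 0.21).

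Among growth factors of receptor tyrosine kinases, PDGFC went from 215, 194 and 243 to 603, 768 and 789.6 (1.72 ± 0.12), PDGFB from 148, 194 and 238 to 373, 775 and 738 (1.66), and FGF1 from 47.8, 67.1 and 62.2 to 113, 207 and 191. FGF5, FGF2, EGF and NRG1 rose by 0.68, 0.64, 0.67 and 0.53. CSF1, the macrophage growth factor, fell by 1.07, and NRG4, BTC and PDGFD by 0.63, 0.47 and 0.42. In all 11 rose and 6 fell of 32. IGFBP5, a binding protein of insulin-like growth factors, read 106, 186 and 256 untreated, 108, 155 and 168 at 8 h and 560.0, 488 and 550.2 at 24 h (1.63 ± 0.40), and its call was lost without untreated replicate 1 (1.29). ANGPTL4, a lipase inhibitor and known target of the pathway, rose by 1.48 ± 0.37, a call lost without 24 h replicate 2 (1.10) or 3 (1.24). Of WNT and Notch genes, WNT7A went from 104, 207 and 177 to 401, 918 and 878 (2.13), WNT5B rose by 0.87, NOTCH2 and JAG1 each by 0.59, and the Wnt antagonists DKK1 and SFRP1 each fell by 1.11 and the co-receptor LRP5 by 0.90. Semaphorins and their receptors included SEMA4G (-1.20), NRP2 (0.90), SEMA3C (0.57) and NRP1 (-0.39). The WNT and Notch list had 9 rose and 6 fell of 38 and the semaphorin list 6 and 4 of 26. Without replicate 2 the numbers higher and lower were 5 and 1 for growth factors, 5 and 3 for WNT and Notch and 3 and 1 for semaphorins. Without replicate 3 they were 4 and 1 for growth factors, 4 and 3 for WNT and Notch and 2 and 1 for semaphorins.

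**Figure D3:**
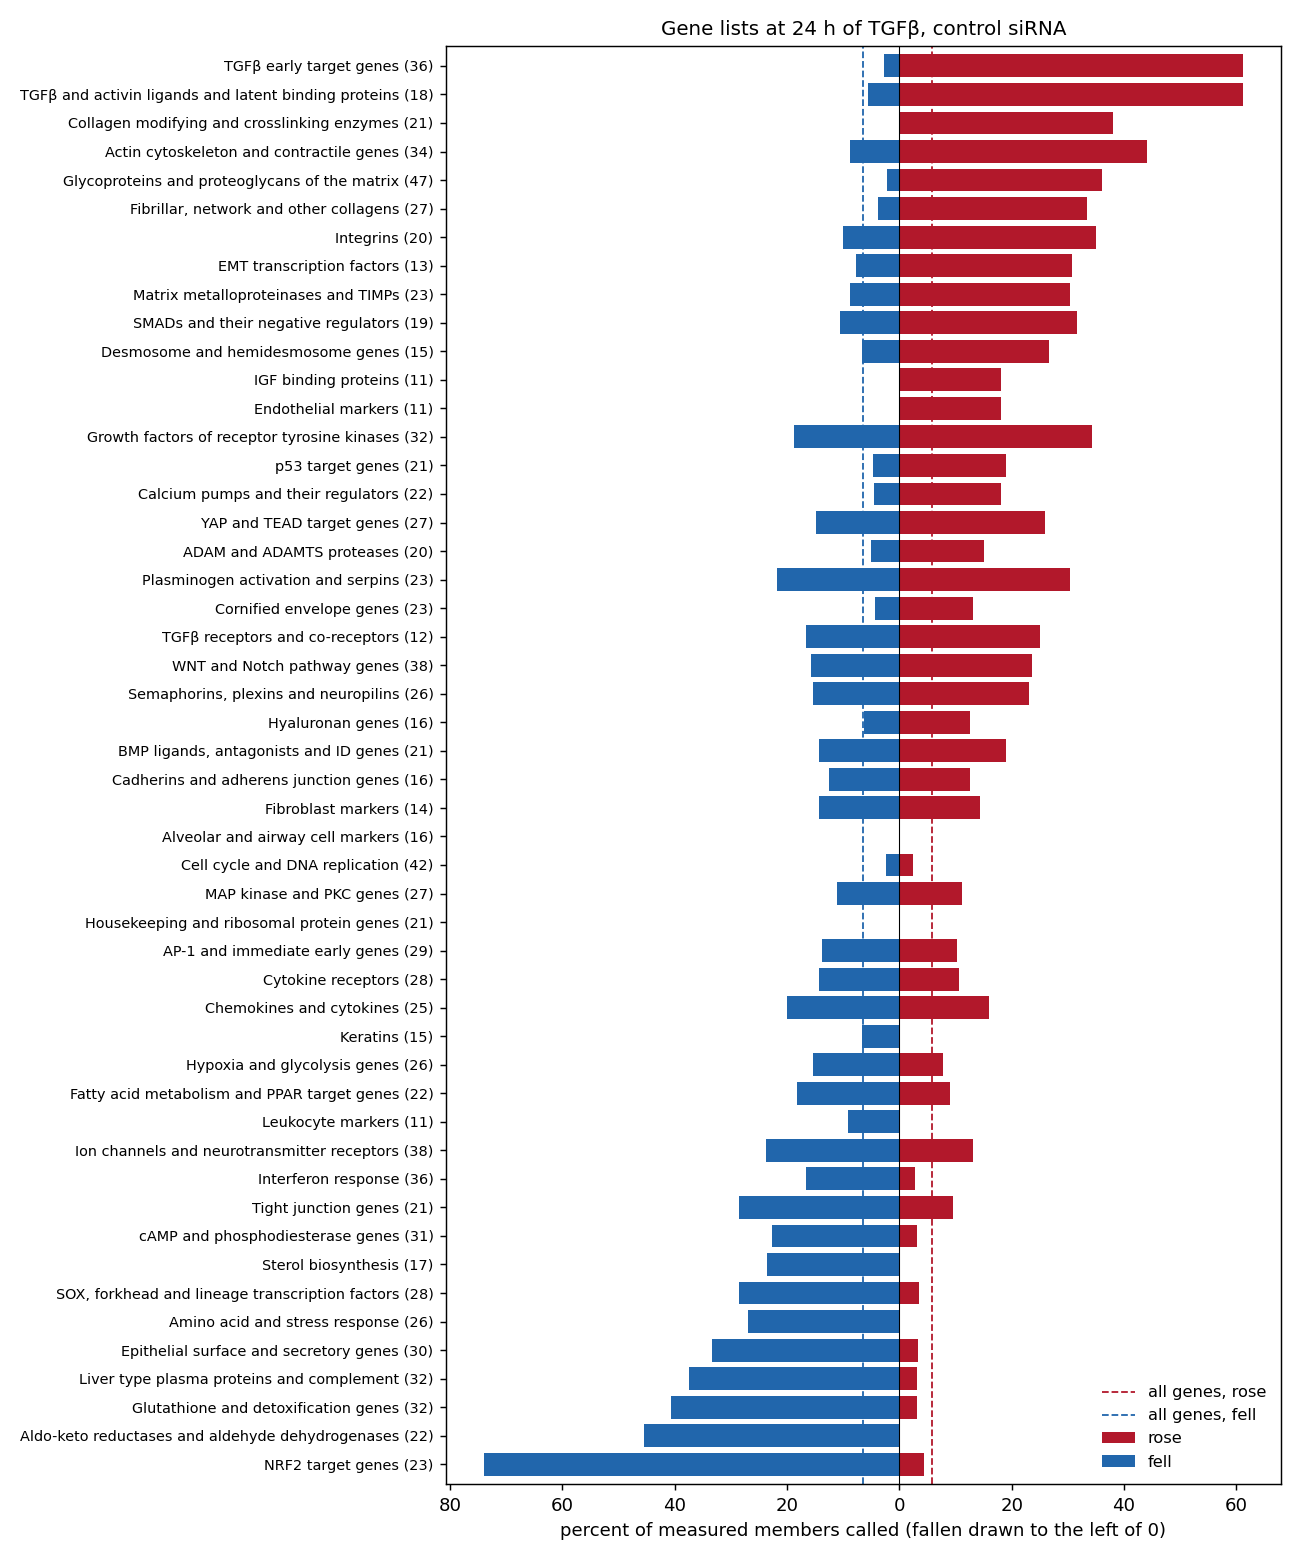
Percentage of the measured members of each gene list that rose (to the right) or fell (to the left) at 24 h in siControl cells, with the number measured in parentheses and dashed lines at 5.85% and 6.46%, the shares over all genes. The early target list reaches 22 of 36 higher and the NRF2 target list 17 of 23 lower, and lists share some genes.

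Of 32 measured plasma proteins and complement components of the kind A549 cells secrete, 12 fell and 1 rose (median -0.17). CP, the copper ferroxidase ceruloplasmin, went from 2224, 780.4 and 949 to 163, 248 and 299 (-2.36 ± 0.38), with untreated array 1 well above the others. The fibrinogen genes FGA, FGB and FGG, which lie together on chromosome 4, fell by 1.96, 1.45 and 1.17. FGA read 1039, 759 and 797 untreated and 392, 158 and 172 at 24 h, FGB 2108, 1053 and 1055 and 596, 450.3 and 431, and FGG 559.7, 333 and 359 and 208, 160 and 175. All 3 were higher in untreated array 1 than in the other untreated arrays, and none overlapped. C5 went from 4897, 3570.0 and 3602 to 1426, 1012 and 1122 (-1.76 ± 0.18), C3 from 591, 615 and 1027 to 244, 246 and 190.2 (-1.68 ± 0.21), APOH, which binds phospholipids, from 701, 487 and 428 to 135, 156 and 173 (-1.78), and VTN, AMBP and CFB fell by 0.93, 0.87 and 0.80. Outside the list, the complement proteases C1S and C1R, next to each other on chromosome 12, fell by 1.19 ± 0.11 and 1.00 ± 0.13. The 1 gene that rose was CD59, the membrane inhibitor of complement lysis (0.70).

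Targets of NRF2 fell in greater number than any other list by share, 17 of 23 against 6.46% of all genes, with a median of -0.44. GPX2, a glutathione peroxidase, read 5226, 6701 and 7242 untreated, 3208, 3716 and 3359 at 8 h and 2154, 1179.8 and 868 at 24 h (-2.28 ± 0.25, limma adjusted p = 6.01e-06). Its promoter is printed as that of the NRF2 target that fell most, from chr14:64942696-64942995, minus strand.
GPX2: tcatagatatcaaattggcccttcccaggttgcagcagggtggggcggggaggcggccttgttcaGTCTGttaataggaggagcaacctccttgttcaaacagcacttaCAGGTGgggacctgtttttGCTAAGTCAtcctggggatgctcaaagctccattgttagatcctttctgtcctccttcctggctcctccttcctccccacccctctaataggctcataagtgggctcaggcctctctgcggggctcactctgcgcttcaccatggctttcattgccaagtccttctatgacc
It holds the antioxidant element core on the opposite strand (GCTAAGTCA as printed) at -122, an E-box at -141 and a SMAD box on the opposite strand at -185. The glutathione synthesis subunits GCLC and GCLM fell by 0.67 and 0.48, TXNRD1, thioredoxin reductase, by 0.55, the drug exporters ABCC2 and ABCC3 by 1.04 and 0.66, EPHX1 by 0.59, and TKT and TALDO1 of the pentose phosphate pathway by 0.42 and 0.35. HMOX1, haem oxygenase, was the 1 member that rose, from 695, 807 and 780.1 untreated to 2075, 1684 and 1418 at 8 h and 1146, 1557 and 1230.3 at 24 h (0.78 ± 0.14). NQO1 fell by 0.42, a call lost without 24 h replicate 1 (-0.36), untreated replicate 1 (-0.30) or untreated replicate 2 (-0.40). With replicate 2 left out 0 were called higher and 9 lower, and with replicate 3 left out 1 and 13.

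Related detoxifying enzymes fell with them. AKR1C2, a steroid-metabolising aldo-keto reductase, went from 11167, 11634 and 9739 to 5442, 4796 and 4266 (-1.17 ± 0.10), and AKR1C3 and AKR1C1, beside it on chromosome 10, fell by 0.70 and 0.41. These paralogs are near-identical in sequence, so their separate values are uncertain. AKR1B10 fell by 0.89, and ALDH3A1, an aldehyde dehydrogenase, went from 3571, 3661 and 3493 to 1267, 1127 and 828 (-1.76 ± 0.12, limma adjusted p = 7.09e-08), with the untreated arrays within a few percent of each other. Of 22 members of these families 10 fell and 0 rose. Of 32 glutathione and cytochrome P450 genes 13 fell and 1 rose, among them the paralogs CYP4F11 (-1.52) and CYP4F3 (-1.38), which are alike enough to share signal, CYP2S1 (-0.91), CYP3A5 (-0.78), CAT (-0.63) and MGST1 (-0.61), with GPX3 (0.50) the 1 that rose. Leaving out replicate 2 gave, higher and lower, 0 and 6 for the reductases and dehydrogenases and 0 and 7 for the detoxification list, and leaving out replicate 3 gave 0 and 5 for the reductases and dehydrogenases and 1 and 7 for the detoxification list.

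**Figure D4:**
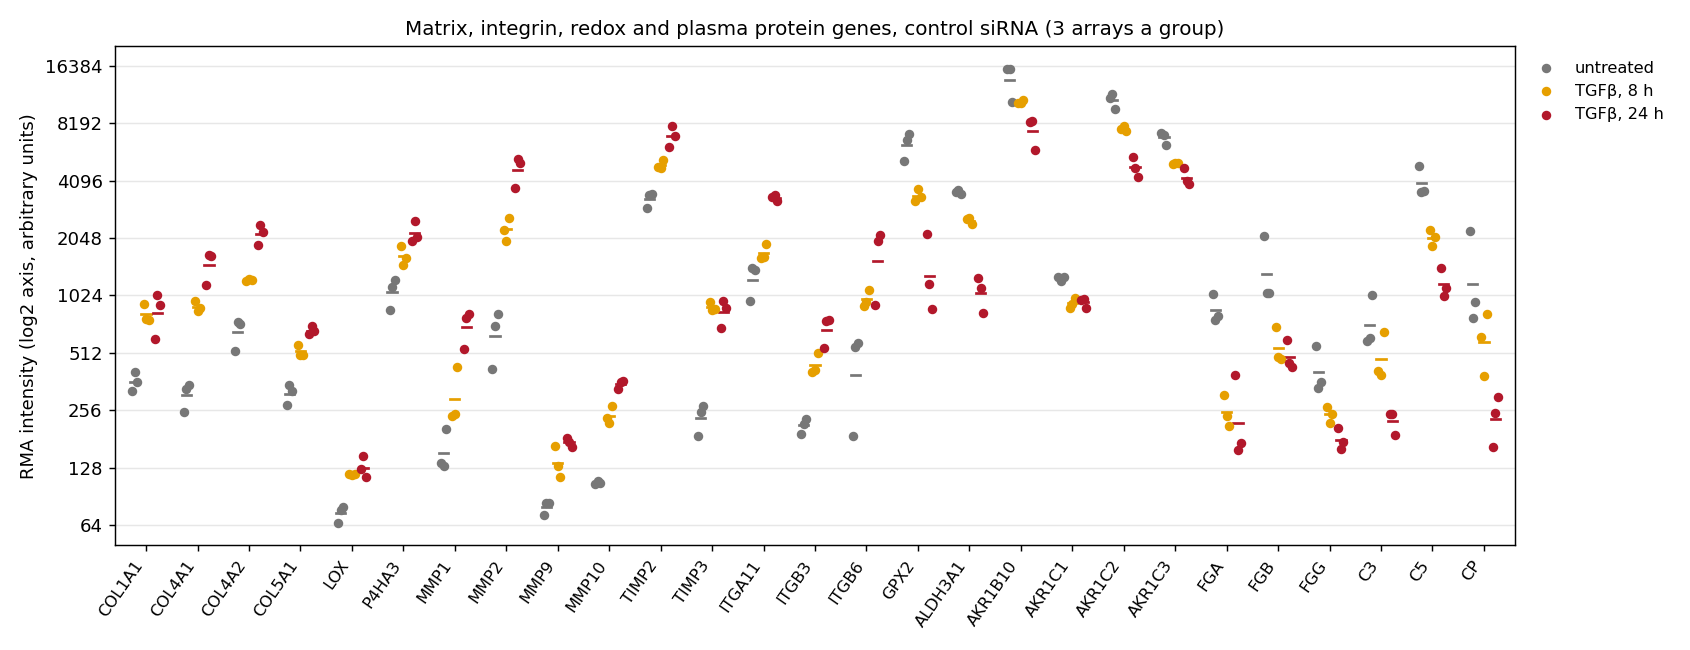
RMA intensity (log2 axis) of 27 matrix, protease, integrin, redox and plasma protein genes in each siControl array, with 1 point per array and a line at the mean of the log2 values. The matrix, protease and integrin genes stand higher at 24 h (MMP2 at 3731 to 5315) and the redox and plasma protein genes lower (GPX2 at 868 to 2154) than in untreated cells.

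Among cytokines IL11 and IL1A rose as given above, IL32 rose by 0.66 and IL6 by 0.45, while CXCL16 and TNFSF15 fell by 1.02 and 0.96. The list had 4 rose and 5 fell of 25. Of 28 cytokine receptors 3 rose (10.7%) and 4 fell (14.3%), beside 5.85% and 6.46% of all genes. IL31RA (0.96) and TNFRSF21 (-0.61) followed CRLF2 in size. Interferon response genes had 1 rose and 6 fell of 36. OAS1 fell by 0.98, IFITM2 by 0.97 and HERC6 by 0.64, and SAMD9 rose by 0.67. The IFITM paralogs can share signal. The number fallen in this list depended on replicate 1, being 14 without it, 2 without replicate 2 and 2 without replicate 3. Called higher and lower without replicate 2 were 2 and 3 for cytokines and 2 and 2 for receptors, and without replicate 3 3 and 2 for cytokines and 3 and 2 for receptors.

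Ion channels and neurotransmitter receptors had 5 rose and 9 fell of 38. 3 nicotinic receptor subunits rose: CHRNA9 from 158, 195 and 226 to 658, 686 and 711, CHRNA3 from 83.4, 105 and 102 to 277, 238 and 261 (1.42) and its chromosome 15 neighbour CHRNB4 from 147, 179 and 165 to 365, 347 and 306 (1.06). The sodium channels NALCN and SCNN1A fell by 1.44 and 1.26, TRPC6 by 0.69 and CACNA1H by 0.63, and the potassium channel KCNMA1 rose by 0.95. In the list of cyclic AMP and prostanoid genes 1 rose and 7 fell of 31, with PDE7B (-0.81) and PTGES (-0.76) after PDE8B and TBXAS1. Without replicate 2 the numbers higher and lower were 3 and 4 for channels and 0 and 3 for cyclic AMP genes. Without replicate 3 they were 3 and 4 for channels and 0 and 3 for cyclic AMP genes.

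Of 42 cell cycle and replication genes 1 rose and 1 fell, 4.76% beside 12.3% of all genes, and the median was -0.035. Both calls depended on single arrays: CDK6 (0.66) lost its call without untreated replicate 1 (0.46), and E2F2 (-0.25) without 24 h replicate 2 (-0.18), untreated replicate 1 (-0.24) or untreated replicate 2 (-0.23). Without replicate 1 the list had 2 and 5 higher and lower. In the amino acid and stress response list 0 rose and 7 fell of 26, the serine synthesis enzymes PHGDH, PSAT1 and PSPH by 0.59, 0.60 and 0.37. A dimmer PSPH probe set read 0.019 and was not called. Sterol synthesis genes had 0 rose and 4 fell of 17, and hypoxia and glycolysis genes 2 risen and 4 fallen of 26, CA12 and ALDOC each falling by 1.00. The hypoxia list had 0 and 2 higher and lower without replicate 2 and 1 and 3 without replicate 3. Of 27 YAP and TEAD targets 7 rose and 4 fell: CCN1 and CCN2 rose as above, NT5E by 0.80 and RBMS3 by 1.24, but ANKRD1 went from 821, 634 and 619 to 273, 283 and 272 (-1.31). Of AP-1 and immediate early genes 3 rose and 4 fell of 29, with MAF (1.15), JUNB and JUN (0.66) higher. Values in that list ran from -1.29 to 1.15 with a median of 0.0011, so it did not move in 1 direction. The numbers called higher and lower were 0 and 4 for amino acid genes, 0 and 1 for sterol genes, 3 and 1 for YAP targets and 1 and 0 for AP-1 genes with replicate 2 left out, and 0 and 1 for amino acid genes, 0 and 0 for sterol genes, 3 and 1 for YAP targets and 1 and 0 for AP-1 genes with replicate 3 left out. None of the 21 listed housekeeping and ribosomal protein genes was called (median -0.083). RPL27A, a ribosomal protein gene outside the list, was called higher (0.55), and its other probe set, also called, read 1.53.

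Markers of lung epithelium and of other cell types were read as well, the latter since RNA of other cells would appear there. None of 16 alveolar and airway markers was called. Of 14 fibroblast markers 2 rose and 2 fell (LUM and FBLN2 higher, PDGFRL and TCF21 lower), and the summed intensity of the list ranged from 3683 to 4568 untreated and from 3451 to 3769 at 24 h. Of 11 endothelial markers 2 rose, ESAM by 0.78 ± 0.16 and TEK by 0.22, with sums of 1064 to 1125 and 1265 to 1367. Of 11 leukocyte markers CD14 fell by 0.66, with sums of 1800.4 to 1902 and 1646 to 1870.3. The call of TEK was lost without 24 h replicate 2 (0.19), 24 h replicate 3 (0.20), untreated replicate 1 (0.22), untreated replicate 2 (0.21) or untreated replicate 3 (0.22), and that of CD14 without 24 h replicate 2 (-0.52). Without replicate 2 in every group ESAM (0.82) was not called either, and the numbers higher and lower were 0 and 0 for endothelial, 2 and 1 for fibroblast and 0 and 0 for leukocyte markers. Without replicate 3 they were 1 and 0, 1 and 1 and 0 and 0, and without replicate 1 the fibroblast markers had 2 and 3. Untreated means were under the array median in 13 of the 16 alveolar and airway, 9 of the fibroblast, 10 of the endothelial and 9 of the leukocyte markers. In such dim genes the lack of a call says little. RMA values have no 0, and whether RNA of other cells had a part in the matrix changes was not tested. The line's own simple-epithelial keratins KRT8 (8079, 7901 and 7720.1 untreated) and KRT18 (3312, 2944 and 3083) were bright.

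Neighbouring genes sometimes moved as a pair. Of 16839 pairs of adjacent genes among 16863 that could be placed, both were called in 438, in the same direction in 305 and in opposite directions in 133, and 20 pairs changed at least 2-fold the same way. They included MMP1 with MMP10, COL4A1 with COL4A2, the fibrinogen genes and the bradykinin receptors, given above, so several of these pairs are of 1 gene family. Of all genes 12.3% were called, and whether neighbours moved together more often than other pairs was not tested. CORO2B stood beside ITGA11 on chromosome 15, both higher. SLN stood between ELMOD1 (1.03) and SLC35F2 (0.58) on chromosome 11, and the 3 rose. CP lay beside TM4SF18 (-1.46), and CRLF2 beside CSF2RA (-0.91), both pairs falling.

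Between 8 h and 24 h after the start of exposure, 241 genes were higher (1.31%) and 202 lower (1.1%) at the later time (limma, adjusted p under 0.05, 2.41% of genes). The 24 h arrays are shared with the comparison against untreated cells. Of the 155 genes at least 2-fold above untreated at 24 h, 41 were called higher at 24 h than at 8 h, 112 neither and 2 lower, which were ANGPTL4 (-1.54) and OLFM2. Of the 122 at least 2-fold below, 32 were called lower still and 90 neither. HHLA2 had the largest such increase among the ranked genes, 1.97 ± 0.12 (adjusted p = 5.87e-08), followed by LCE3E (1.83), SLN (1.71) and LCE3D (1.45). CST1, a salivary cystatin protease inhibitor, was 1.46 higher at 24 h than at 8 h, LUM 1.34, AGMO, which cleaves ether lipids, 1.31, FLRT2 1.22 and PDGFC 1.16. LUM read 165, 158 and 114 at 8 h, which overlapped its untreated arrays, and was above all of them at 24 h. On the falling side the value at 24 h minus that at 8 h was -1.43 for AGR2, -1.39 for GPX2, -1.15 for CPA4, a carboxypeptidase, and -1.06 for NALCN. Other genes were not called between the times: SNAI1 was at 856, 556 and 647 at 8 h and 310.4, 566 and 481 at 24 h (-0.62, adjusted p = 0.0792), and the values were -0.034 for SNAI2 (adjusted p = 0.969) and 0.18 for PDK4 (adjusted p = 0.883). The 443 calls became 211 when only the 6 arrays compared were fitted, 11 without replicate 2, 13 without replicate 3 and 670 without replicate 1.

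**Figure D5:**
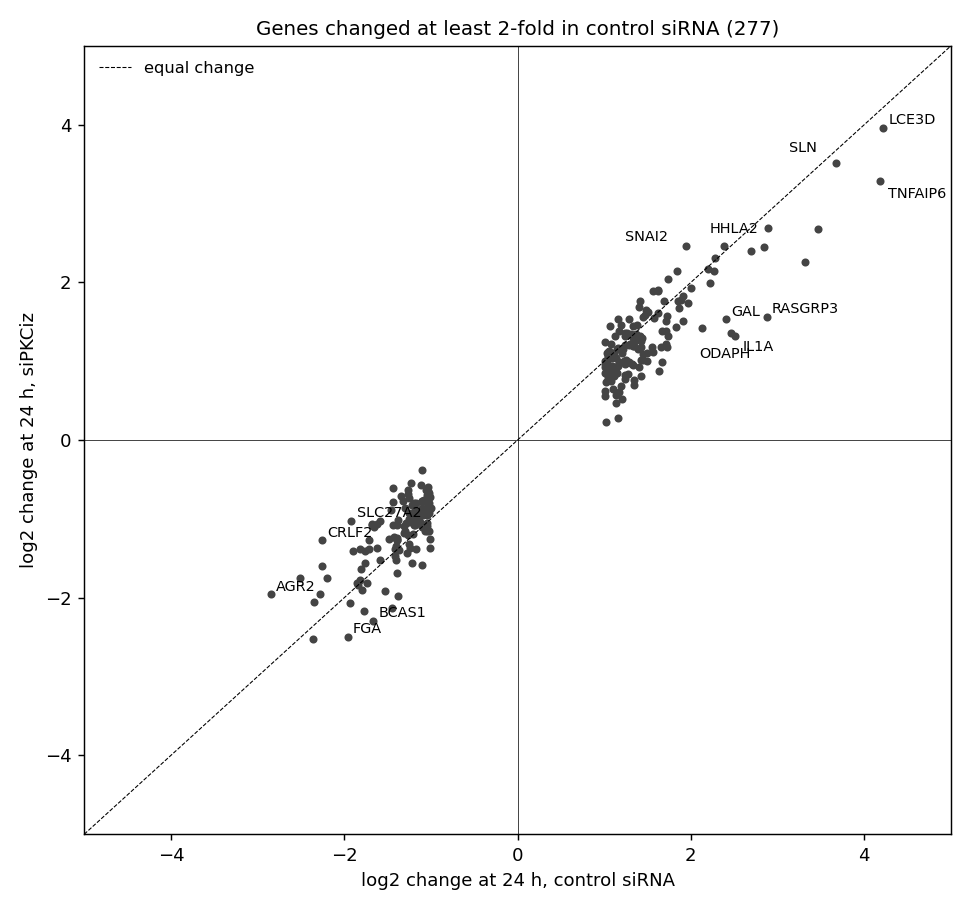
Log2 change at 24 h in the siPKCiz arm (vertical axis) against that in the siControl arm (horizontal axis) for the 277 genes called and at least 2-fold changed in siControl, with the line of equal change. The siPKCiz arm uses 6 other arrays, and all 277 points lie in the quadrants of equal sign.

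The same contrast in the siPKCiz arm uses 6 other arrays, so it measures the response again in cells with a different siRNA. There 855 genes rose (4.65%) and 1119 fell (6.09%), 10.7% in all. Of the 277 genes called and at least 2-fold changed in siControl, 277 had the same sign, 262 (94.6%) were called in the same direction and 0 in the opposite one. The change was smaller in siPKCiz for 210 of the 277, a count with no test, from genes chosen for their size in siControl. Of the 60 ranked genes 59 were called, and the other, ODAPH, read 66.1, 54.8 and 49.2 untreated and 273, 114 and 96.9 at 24 h (1.36 ± 0.46, adjusted p = 0.0664). LCE3D went from 114, 149.9 and 154 to 3603, 1572 and 1752 (3.96 ± 0.27), AGR2 from 3565, 4312 and 4910.0 to 800.3, 1241 and 1294 (-1.96 ± 0.26), HHLA2 from 166, 161 and 167 to 883, 907 and 938 (2.47) and CDH1 from 930.5, 851 and 719.7 to 218, 404 and 373 (-1.37). In LCE3D the siPKCiz 24 h array 1 was the highest of its group, whereas in siControl array 1 was the lowest.

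The difference between the arms was tested gene by gene as an interaction. No gene was called (limma, smallest adjusted p 0.9997), 705 genes (3.84%) had an unadjusted p under 0.05, array weights gave 1 call, and fits without replicate 1 in every group gave 80. For LCE3D the difference in log2 change, siPKCiz minus siControl, was -0.26 (95% interval -1.06 to 0.53), for TNFAIP6 -0.91 (95% interval -2.24 to 0.42), for IL1A -1.20 (95% interval -2.22 to -0.17), for AGR2 0.89 (95% interval 0.12 to 1.66) and for HHLA2 0.089 (95% interval -0.27 to 0.45). A p that misses the threshold does not show that the arms responded alike. Taken gene by gene, these intervals give the differences that the data allow, without adjustment for the number of genes tested. The genes were also ranked by their size in siControl. The intervals of IL1A and AGR2 leave out equal change, but neither gene was called, so a difference between the arms is not shown for them.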

How the data were processed

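RNA of 18 A549 cultures (6 groups of 3 biological replicates; 200 ng of RNA per array, per the labels) was measured on whole-transcript arrays. The authors deposited RMA intensity on a linear scale; RMA and Partek are named in the submitters' processing notes, their versions and the genome build are not given in the sources used here. Values ran from 21.2 to 51230 and gave no detection call; log2 was taken once. Of 28869 probe sets 19310 carried 1 symbol, 1752 several and 7807 none; the brightest stood for each gene, leaving out 933. Of 69 called genes with further probe sets, 61 had them all of 1 sign and 34 all called. A limma model (limma 3.58.1, R 4.3.3) with a mean for each of 6 groups was fitted to all 18 arrays for 18377 genes (12 residual, 18.1 total degrees of freedom). Calls required an adjusted p (Benjamini-Hochberg) under 0.05. Every ± is a standard error, and every change is on the log2 scale unless a fold is named. Array data have no read depth, so 3 arrays per group set the precision.

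The comparison, the genes and the 51 lists (1237 of 1349 members measured) were chosen with earlier results of these data known, and 1 list is not reported here. Genes were named by rule: the 30 highest and 30 lowest called genes whose arrays did not overlap, the 12 each way for 24 h against 8 h and for the difference between arms, up to 8 called members per list and members needed to show a family, fixed markers, and called neighbours of ranked genes. In simulated data with 18377 genes, 97.5% of 200 genes changed by 1 log2 unit were recovered, and 4.88% of calls were false. The simulated noise was normal and independent, with 1 spread per gene for all arrays and no replicate set apart. Smaller changes were not simulated, so these rates need not hold for the calls given here. Alternatives were the replicate number as a block, array weights, median centring, quantile normalization, removal of dim probe sets, trended or robust moderation, a fold minimum of 1.5, only the arrays compared, all probe sets, and leaving out each array or replicate number.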

Additional observations from a re-analysis of the deposited data

Results flagged for a closer look

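Among the 60 genes ranked by size, 19 differed between 24 h and 8 h after the start of TGFβ exposure, a second contrast that shares the 24 h arrays with the first; each difference was tested with limma (adjusted p under 0.05). The genes higher at 24 h than at 8 h were HHLA2 (1.97), LCE3E (1.83), SLN (1.71), LCE3D (1.45), MMP1 (1.26), SRPX (1.24), MMP2 (1.03), DOCK2 (0.91) and SULF2 (0.85). Those lower at 24 h than at 8 h were AGR2 (-1.43), GPX2 (-1.39), SLC27A2 (-1.26), ALDH3A1 (-1.26), C3 (-1.07), TBXAS1 (-1.02), APOH (-0.96), TM4SF4 (-0.82), C5 (-0.81) and CDH1 (-0.67). All 19 went further at 24 h in the direction they had at 8 h. The genes were chosen for their size at 24 h, which favours that direction, so it is no separate result.

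Probe sets outside the gene table also differed between TGFβ at 24 h and untreated cells. Of the 7807 with no gene listed, 213 were called (134 higher, 79 lower, 2.73%), and of the 1752 with several symbols, 111 (48 higher, 63 lower, 6.34%), beside 12.3% of the genes tested. They were not named here.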

How the results depend on the processing

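The count of genes called at 24 h against untreated, 2262, stayed within 1.5 times under 8 of 10 other settings and in each of the 6 fits without 1 array (1530 to 2285). It was 3483 with array weights and 845 with a fold minimum of 1.5, and 755 to 2872 when 1 replicate number was left out of every group. For 24 h against 8 h, 443 calls became 154 with the fold minimum, 211 with only the arrays compared, 262 with the replicate block, and 11 to 670 in fits without an array or replicate number. For the difference between the arms, 0 calls became 1 with array weights and 0 to 80 in the leave-out fits, 80 being without replicate 1 and 3 without siControl 24 h replicate 1. Same-numbered deviations of the untreated and 24 h siControl arrays correlated at -0.072, 0.084 and -0.10. Those of differently numbered arrays ran from -0.21 to 0.23. These few values show no pairing by replicate number and cannot settle whether there was one. With the number as a block 1914 genes were called (925 higher, 989 lower), and 39 of the 444 called genes among those covered by the naming rule were lost. Of those 444, 65 were lost with only the arrays compared, 28 without replicate 1, 215 without replicate 2 and 205 without replicate 3. MCM2, not called in the full fit, was the 1 gene under the naming rule that was called with the opposite sign in another fit, running from -0.34 (called, without replicate 1) to 0.24 over the fits without an array or replicate number. ACTA2, near 0 and not called in the full fit, was called at -0.40 without replicate 1 and read 0.32 without replicate 3, and other uncalled values could turn sign as well. Quantile normalization and median centring moved the median over all genes from -0.0099 to -0.0068 and -0.0076. The causes were not tested, beyond the fewer arrays of the fits that leave some out.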
